A study of Homo sapiens with 6 samples.

Results

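The epidermal growth factor (EGF) family was followed at the RNA level in U87 cells after rutaecarpine treatment. The 10 genes described were chosen by name from the 60671 genes listed, and they comprise 7 ligand genes (EREG, AREG, HBEGF, TGFA, BTC, EPGN and NRG1) and 3 receptor genes (EGFR, ERBB2 and ERBB3). The messages of 2 ligands, EREG and NRG1, had mean levels 7.61 and 7.30 times as high in rutaecarpine-treated cells as in control cells (n = 3 libraries each), while no other member passed the test for a change. Against control replicates 1 and 2 alone the ratios were 6.23 and 6.21. U87 is an established human glioblastoma cell line, and rutaecarpine is an alkaloid of Evodia that the study examined as an activator of the aryl hydrocarbon receptor (AhR). There were 3 libraries of cells given 100 μM rutaecarpine for 48 h and 3 control libraries of cells given the solvent for 48 h. Dimethyl sulfoxide was present at 0.1% in both groups, and both were dosed in medium without serum. The question addressed was which members of the family differed between the 2 groups.

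EGF-family ligands are made as precursors anchored in the membrane, and ADAM metalloproteases, ADAM17 above all, release most of them as soluble growth factors. Each ligand binds the receptor tyrosine kinases EGFR, ERBB3 or ERBB4, which then pair with one another or with ERBB2 and drive the RAS-MAPK and PI3K-AKT pathways. EGFR is a frequent site of amplification and mutation in glioblastoma.

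Values are TPM, transcript abundances scaled by gene length and by the total of each library, so that levels of different genes can be set side by side. Each is an average over a culture, so more cells with a message and more RNA per cell cannot be told apart. Group values are the mean ± SD of 3 libraries. Groups were compared with limma on log2(TPM + 1) in the 14377 genes that reached 1 TPM in 3 or more libraries. A gene was called changed where its Benjamini-Hochberg adjusted p over all these genes was at most 0.05 and its absolute log2 fold change was above 1. The labels do not say whether the libraries of a group came from separate cultures, so the p values measure only the spread between libraries, which may be technical. With 3 libraries against 3, an exact permutation test of a single gene cannot go below p = 0.1.

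The summed TPM of the libraries ranged from 990889 to 995734, and TPM keep no read numbers, so the depth is unknown. Of the glial and glioma markers, GFAP was at 3.48 to 5.41 TPM over all libraries, SOX2 reached at most 0.06 and S100B 0.25. VIM was at 6974 to 7968 TPM in control libraries and 4430 to 5164 in rutaecarpine libraries (log2 fold change -0.63, limma, Benjamini-Hochberg adjusted p = 0.00894), NES at 17.2 to 21.02 and 12.29 to 13.6 (-0.53, adjusted p = 0.0491) and OLIG2 at 1.48 to 1.73 and 3.07 to 4.11 (0.83, adjusted p = 0.0262), each with groups that did not overlap and short of the fold for a call. CDKN2A, CDKN2B and MTAP, neighbouring genes that U87 cells are known to lack, were at most 0.06 TPM. The 10 markers of other cell types summed to 460 to 515 TPM in control libraries and 327 to 365 in rutaecarpine libraries, nearly all of it CD68, while the leukocyte marker PTPRC was at most 0.03. The part of these differences in the results that follow was not tested. Control replicate 3 stood apart from the other libraries. Its correlation with each other control was 0.965 on the log2 scale, against 0.986 between those 2. Its difference from their mean on the log2(TPM + 1) scale had a median of 0.080 over the 3496 genes with transcripts of up to 2000 bases, -0.51 over the 4494 genes of 4000 to 8000 bases and -0.74 over the 1103 longer ones. The same difference was -1.11 for EREG, -0.78 for NRG1, -1.05 for TGFA, -1.26 for EGFR and -0.63 for ERBB2, against -0.19 for HBEGF and -0.21 for BTC. The fold changes of EREG, NRG1, TGFA and EGFR and the medians of the lists of pathway genes are therefore also given without it. For single genes of those lists the fold changes are those with all libraries.

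Of the 10 members, 7 passed the filter on low TPM and 3 (AREG, EPGN and ERBB3) were under 1 TPM in every library. Among the 7 tested, 2 were called higher (EREG and NRG1) and 0 lower. Over all 14377 genes tested, 2.01% were called higher and 1.5% lower (289 and 216 genes, or 251 and 295 once libraries were centred on their medians), and 9.29% had an adjusted p of at most 0.05 at any fold. The 2 groups did not overlap for EREG and NRG1 among the 7 tested members, which sits beside 33.3% of all genes tested.

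**Figure D1:**
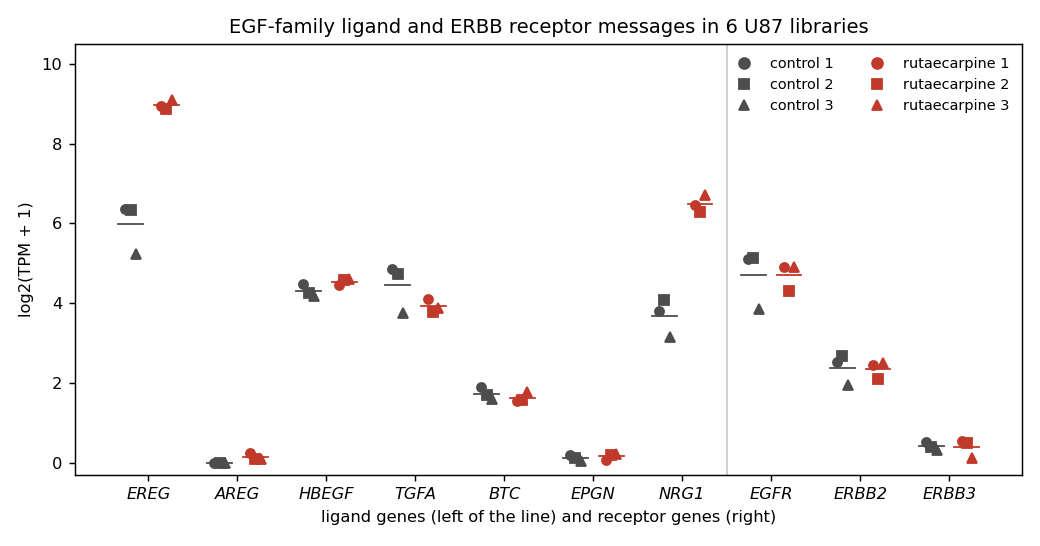
Each symbol is the log2(TPM + 1) of a member in a library, with control libraries in grey, rutaecarpine libraries in red, the shape giving the replicate and a horizontal line giving the group mean. EREG and NRG1 show red symbols well above the grey ones, and AREG, EPGN and ERBB3 lie near 0. Control replicate 3 (grey triangle) is the lowest control for every member but AREG, which is at 0 in all controls.

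EREG (ENSG00000124882, chromosome 4, 74365143 to 74388751, GRCh38) encodes epiregulin, a ligand of EGFR and ERBB4. Its TPM was 81.1, 80.4 and 36.9 in the 3 control libraries and 496, 464 and 550 in the 3 rutaecarpine libraries. Every rutaecarpine library was far above the highest control library, and control replicate 3 was the low one of its group. The mean rose from 66.1 ± 25.3 to 503 ± 43.9 TPM, a ratio of 7.61. On the log2(TPM + 1) scale the fold change was 2.99 with an SE of 0.29 and a 95% confidence interval of 2.30 to 3.68 (limma, Benjamini-Hochberg adjusted p = 0.00156). Without control replicate 3 it was 2.62 with an SE of 0.082 (limma, adjusted p = 6.5e-06), and the treated mean was 6.23 times that of the other 2 controls. By its fold change EREG was number 17 among the tested genes, and by its mean TPM it moved from place 2079 to place 262 of all genes listed.

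The upstream sequences of EREG and of its neighbour AREG are shown because these adjacent ligand genes stood at opposite ends of the family's range of levels. They are the 250 bases before each gene's start in RefSeq (GRCh38.p14), read 5′ to 3′ on the plus strand, for EREG chr4:74364895-74365144 and for AREG chr4:74444886-74445135. Capitals mark matches, on either strand, to the core of the AhR response element, GCGTG, to the cyclic AMP response element TGACGTCA or to the AP-1 motif TGANTCA.
EREG: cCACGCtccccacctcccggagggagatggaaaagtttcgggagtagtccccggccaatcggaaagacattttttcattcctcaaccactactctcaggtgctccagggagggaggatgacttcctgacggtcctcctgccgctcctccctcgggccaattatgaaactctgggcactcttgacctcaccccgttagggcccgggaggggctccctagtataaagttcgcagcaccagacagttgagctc
AREG: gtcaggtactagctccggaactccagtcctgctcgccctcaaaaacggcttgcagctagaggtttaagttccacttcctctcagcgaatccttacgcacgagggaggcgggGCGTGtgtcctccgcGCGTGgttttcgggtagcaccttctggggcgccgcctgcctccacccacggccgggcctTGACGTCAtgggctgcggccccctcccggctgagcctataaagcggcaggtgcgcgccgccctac
The EREG window held 1 match to GCGTG, read on the minus strand and 249 bases before the start, and none to the other motifs. The AREG window held 2 matches to GCGTG, 139 and 124 bases before the start, and 1 to TGACGTCA, 65 bases before it. Over all 35116 promoter windows of the same length, 32.2% held GCGTG, 1.65% TGACGTCA and 6.57% TGANTCA. Windows were found for 8 of the 10 members, and GCGTG was also matched in those of EPGN, BTC and TGFA (its second start), while TGANTCA was matched in those of ERBB2 and EGFR (its second start). The HBEGF window held none of the 3 motifs. The paper searched a longer upstream stretch for the longer cores CACGCNA and TNGCGTG, so GCGTG is a looser rule. The GCGTG matches shown for EREG and AREG do not meet the paper's cores. A match is a description of letters and not of binding.

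AREG (ENSG00000109321, chromosome 4, 74445134 to 74455009) encodes amphiregulin, a ligand of EGFR. It was listed at 0 TPM in all 3 control libraries and at 0.18, 0.06 and 0.07 in the rutaecarpine libraries. The groups did not overlap, but all values were near 0, and no fold change is given against a group listed at 0. EPGN (ENSG00000182585, chromosome 4, 74308473 to 74315307), the gene of the EGFR ligand epigen, was at 0.14, 0.09 and 0.04 TPM in control libraries and 0.05, 0.15 and 0.16 in rutaecarpine libraries, and these overlap. The start of EPGN lies 56.7 kb before that of EREG and the start of AREG 80.0 kb after it. The high level of EREG in treated cells was thus flanked by 2 ligand genes that stayed at 0.18 TPM or less.

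NRG1 (ENSG00000157168) encodes neuregulin 1, a ligand of ERBB3 and ERBB4. Its TPM was 12.9, 15.9 and 7.93 in control libraries and 87.1, 77.7 and 103 in rutaecarpine libraries. As for EREG, the groups lay far apart and control replicate 3 was the lowest library. The mean rose from 12.2 ± 4.02 to 89.3 ± 12.9 TPM, a ratio of 7.30. The log2 fold change on log2(TPM + 1) was 2.81 with an SE of 0.24 and a 95% confidence interval of 2.24 to 3.38 (limma, Benjamini-Hochberg adjusted p = 0.00102). Without control replicate 3 it was 2.55 with an SE of 0.14 (limma, adjusted p = 7.9e-05), a ratio of 6.21 to the other 2 controls. NRG1 was number 23 by fold change and moved from place 7557 to place 1607 by mean TPM.

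HBEGF (ENSG00000113070, chromosome 5, 140332843 to 140346631) encodes heparin-binding EGF-like growth factor, a ligand of EGFR and ERBB4. Its TPM was 21.4, 18.1 and 17.2 in control libraries and 20.96, 22.9 and 23.3 in rutaecarpine libraries. Rutaecarpine replicate 1 lay below control replicate 1, so the groups overlap. The means were 18.9 ± 2.24 and 22.4 ± 1.25 TPM, and the log2 fold change of 0.24 (95% confidence interval -0.064 to 0.54) did not pass the test (limma, Benjamini-Hochberg adjusted p = 0.311). The upper bound corresponds to 1.45-fold on the TPM + 1 scale.

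TGFA (ENSG00000163235, chromosome 2, 70447280 to 70554193) encodes transforming growth factor alpha, a ligand of EGFR. Its TPM was 28.1, 25.7 and 12.5 in control libraries and 16.2, 12.7 and 13.8 in rutaecarpine libraries. The first and second controls were above every treated library, and control replicate 3 was below them all. With all libraries the means were 22.1 ± 8.41 and 14.3 ± 1.79 TPM, a ratio of 0.644, and the log2 fold change of -0.53 (95% confidence interval -1.22 to 0.16) did not pass (limma, Benjamini-Hochberg adjusted p = 0.325). Without control replicate 3 the log2 fold change was -0.88 (95% confidence interval -1.18 to -0.58, limma, adjusted p = 0.00391), short of the fold needed for a call, and the treated mean was 0.529 of the 26.9 TPM of the other 2 controls. The adjusted p of TGFA therefore turned on that library.

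BTC (ENSG00000174808, chromosome 4, 74744759 to 74794686) encodes betacellulin, a ligand of EGFR and ERBB4. Its TPM was 2.74, 2.26 and 2.02 in control libraries and 1.91, 1.98 and 2.40 in rutaecarpine libraries. The groups overlap, and the log2 fold change of -0.11 (95% confidence interval -0.52 to 0.30) did not pass (limma, Benjamini-Hochberg adjusted p = 0.736). BTC was the lowest of the 5 ligand genes that could be tested.

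**Figure D2:**
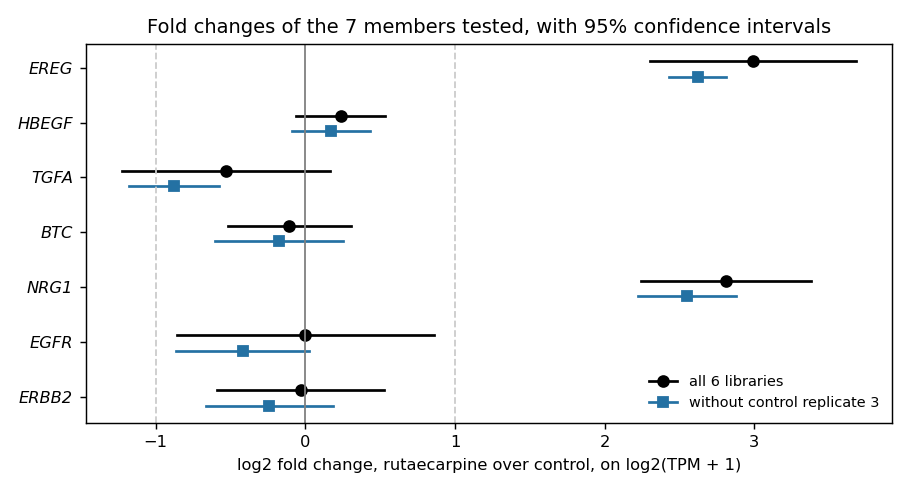
Points are the log2 fold change (rutaecarpine over control, on log2(TPM + 1)) of the 7 members tested with 95% confidence intervals as bars, in black with all 6 libraries and in blue without control replicate 3. Dashed lines mark the fold needed for a call, which EREG (2.99) and NRG1 (2.81) exceed with and without that library, while the interval of TGFA leaves 0 only without it.

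Of the receptors, EGFR (ENSG00000146648, chromosome 7, 55019021 to 55211628), which binds most of these ligands, was the most abundant. Its TPM was 33.4, 34.4 and 13.6 in control libraries and 29.1, 18.7 and 29.1 in rutaecarpine libraries. Rutaecarpine replicate 2 and control replicate 3 were the low ones, and the groups overlap. The means were 27.1 ± 11.7 and 25.6 ± 5.99 TPM, and the log2 fold change was 0.00085 with a 95% confidence interval of -0.86 to 0.86 (limma, Benjamini-Hochberg adjusted p = 0.999). That interval spans 0.552-fold to 1.81-fold on the TPM + 1 scale, so changes of this size were not detectable. Without control replicate 3 the log2 fold change was -0.42 (95% confidence interval -0.86 to 0.024, limma, adjusted p = 0.177). That fit still held rutaecarpine replicate 2, the low treated library. With only rutaecarpine replicate 2 left out, the log2 fold change was 0.20 (limma, adjusted p = 0.789).

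ERBB2 (ENSG00000141736, chromosome 17, 39687914 to 39730426), the partner receptor with no known ligand of its own, was at 4.73, 5.35 and 2.90 TPM in control libraries and 4.48, 3.30 and 4.66 in rutaecarpine libraries. The groups overlap, with control replicate 3 again the lowest. The log2 fold change was -0.030 (95% confidence interval -0.59 to 0.53, limma, Benjamini-Hochberg adjusted p = 0.950). ERBB3 (ENSG00000065361, chromosome 12, 56076799 to 56103505), a receptor of NRG1 with little kinase activity, was at 0.43, 0.32 and 0.25 TPM in control libraries and 0.46, 0.41 and 0.09 in rutaecarpine libraries. These values overlap and were not tested. ERBB4, the remaining receptor of NRG1, reached at most 0.04 TPM in any library, so the messages of both receptors that bind NRG1 stayed under 0.5 TPM in all 6 libraries.

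The other genes of the family added little. Of EGF, NRG2, NRG3, NRG4 and ERBB4, 2 passed the filter and 0 were called. NRG2, a further neuregulin, was at 3.71 to 5.75 TPM (log2 fold change -0.19, limma, Benjamini-Hochberg adjusted p = 0.543), and EGF itself at 0.52 to 1.79 TPM (0.12, adjusted p = 0.811). NRG4 stayed between 0.41 and 0.64 TPM and NRG3 at 0.02 or less.

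The order of the ligand messages by TPM differed between the groups. In control cells EREG was the highest, and the ranges of TGFA and HBEGF overlapped. NRG1 came next, with a range that overlapped that of TGFA but not that of HBEGF. Both overlaps came from control replicate 3. In control replicates 1 and 2 the order was EREG, TGFA, HBEGF and NRG1, with no overlap. In rutaecarpine-treated cells the order was EREG, NRG1, HBEGF, TGFA and BTC, and no ranges of neighbours overlapped. EPGN and AREG were the lowest in both groups, and their ranges overlapped in treated cells. The 7 ligand genes together summed to 76.6 to 146 TPM in control libraries (mean 122 ± 39.3) and 579 to 693 TPM in rutaecarpine libraries (632 ± 57.7). EREG made up 48.2 to 56.4% of that sum in control libraries and 79.4 to 80.1% in rutaecarpine libraries. The share of NRG1 was 8.81 to 11.1% and then 13.4 to 14.9%, that of TGFA 16.4 to 19.2% and then 1.99 to 2.61%, and that of HBEGF 12.7 to 22.4% and then 3.36 to 3.95%. Since shares add up to the whole, a lower share of TGFA or HBEGF is not by itself a measure of a fall in its message. Control replicate 3 had the lowest control sum, the lowest control share of EREG and the highest of HBEGF. Control replicates 1 and 2 summed to 146 and 143 TPM, with EREG at 55.4 and 56.4% and HBEGF at 14.6 and 12.7%. The 3 receptor genes summed to 16.7 to 40.1 TPM in control libraries and 22.4 to 34.0 in rutaecarpine libraries, with EGFR at 81.2 to 86.6% and 83.4 to 86.0% of the sum. Control replicate 3 gave the lowest of these sums and of these EGFR shares.

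**Figure D3:**
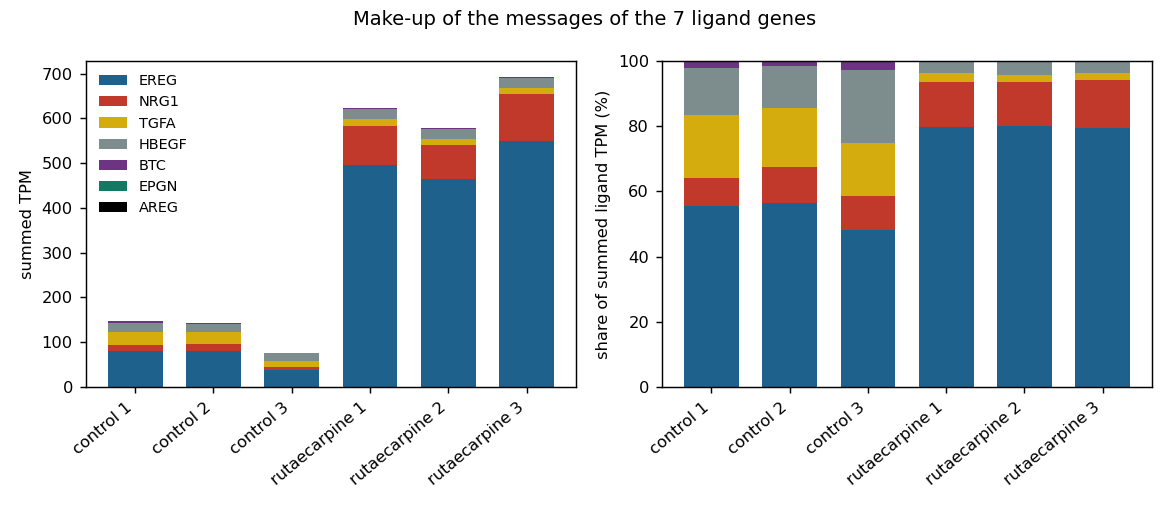
Bars stack the TPM of the 7 ligand genes in each library (left) and their shares of the sum in percent (right), and each colour is a gene. EREG and NRG1 fill most of the taller treated bars, and the share of EREG is 48.2 to 56.4% in control libraries and 79.4 to 80.1% in treated ones.

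Ratios of members within a library were added after the values had been seen, since what moves 2 genes of a library alike leaves their ratio unchanged. The TPM of EREG was 2.88, 3.13 and 2.95 times that of TGFA in control libraries and 30.6, 36.4 and 39.8 times in rutaecarpine libraries. On this ratio control replicate 3 lay between the other controls. On the other ratios computed it was the highest or the lowest control, though not always the one farthest from the rest. EREG over EGFR was 2.34 to 2.72 in control libraries and 17.1 to 24.8 in rutaecarpine libraries, and NRG1 over EGFR was 0.386 to 0.584 and 3.00 to 4.16. TGFA over EGFR was 0.747 to 0.921 in control libraries and 0.475 to 0.680 in rutaecarpine libraries, and these did not overlap. The groups did overlap on HBEGF over TGFA, HBEGF over EGFR and ERBB2 over EGFR. The ratio of EREG to NRG1 was 4.65 to 6.29 in control libraries and 5.33 to 5.97 in rutaecarpine libraries. The ranges overlap, and no difference between EREG and NRG1 in their rise was seen at this spread.

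Among all tested genes, the profiles most like that of EREG over the 6 libraries were those of GREM1, LIF and NRG1. Likeness was the root-mean-square difference of log2(TPM + 1) after subtracting each gene's control mean, and it was 0.114, 0.123 and 0.194. For NRG1 the nearest were GREM1 (0.156), LIF (0.193) and EREG (0.194). GREM1, a secreted inhibitor of bone morphogenetic proteins, was at 46.7 ± 15.3 TPM in control cells and 341 ± 30.6 in treated cells. LIF, a cytokine of the interleukin 6 family, was at 111 ± 32.9 and 889 ± 134 TPM.

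EREG lies on chromosome 4 near a cluster of chemokine genes. Within 700 kb on either side of its start, a window chosen after the values had been seen, 15 protein-coding genes were listed and 9 were tested. Of the 8 tested other than EREG, 5 were called higher and 0 lower, beside 2.01% called higher and 1.5% lower of all genes tested, and the 6 genes not tested were under 1 TPM in every library. The called neighbours were the chemokine genes CXCL8, CXCL5, CXCL3 and CXCL2 and the mitochondrial folate enzyme gene MTHFD2L. CXCL5 was at 1.07, 0.85 and 0.27 TPM in control libraries and 2.70, 3.37 and 2.54 in rutaecarpine libraries. It passed the filter on low TPM only through the treated libraries, so its place in this count was not independent of its rise. CXCL2 was at 50.5 ± 6.50 TPM in control cells and 431 ± 70.7 in treated cells, and MTHFD2L at 16.1 ± 2.99 and 35.4 ± 1.55. CXCL1, BTC and PARM1 were tested and not called, with log2 fold changes of 0.35, -0.11 and 0.26. CXCL1, CXCL2 and CXCL3 are close copies of one another, so the way RSEM divided their reads leaves each value uncertain.

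**Figure D4:**
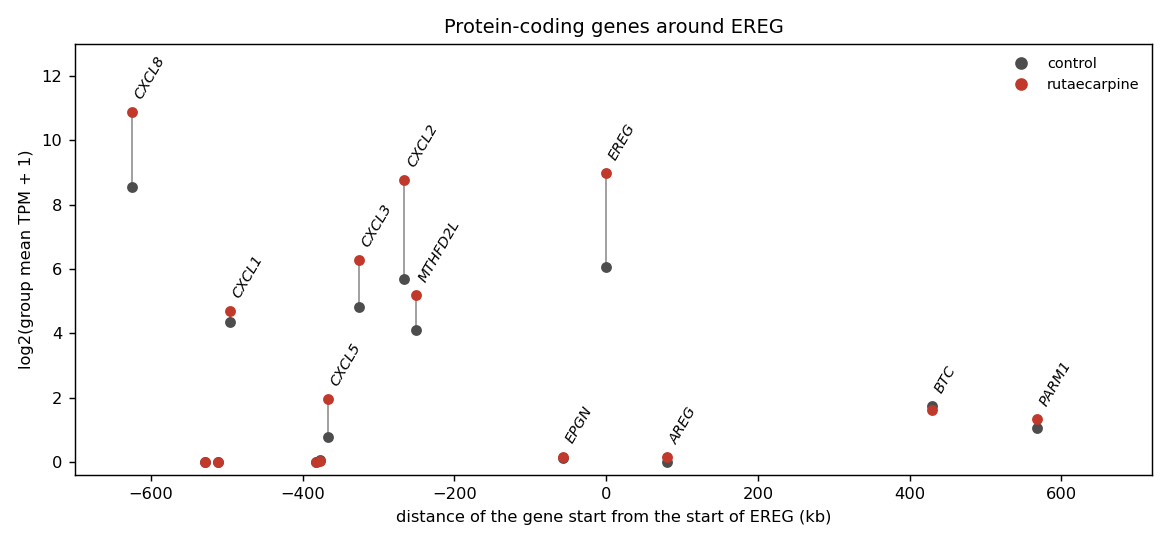
Points are the log2 of the group mean TPM + 1 (control grey, rutaecarpine red) of protein-coding genes, placed by the distance in kb of their start from that of EREG. EPGN and AREG on either side of EREG lie near 0 in both groups, while EREG and the chemokine genes CXCL8, CXCL3 and CXCL2 lie higher in treated cells, and unnamed points are genes under 1 TPM.

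Lists of genes that act upstream and downstream of the receptors were then examined, and their medians stand beside a median log2 fold change of 0.082 over all genes tested (-0.010 without control replicate 3). Of the 10 genes for sheddases and their iRhom partners, which release the ligands, 10 were tested and 0 were called, with a median of -0.076 (-0.24 without control replicate 3). ADAM17, the main sheddase of EREG, AREG, TGFA and HBEGF, was at 23.7, 23.7 and 10.2 TPM in control libraries and 33.5, 34.0 and 39.6 in rutaecarpine libraries. The groups did not overlap, but the log2 fold change of 0.95 did not pass the test (limma, Benjamini-Hochberg adjusted p = 0.112), and control replicate 3 was again the low library. ADAM15 had the only adjusted p in this list to pass, at 59.9 to 62.9 TPM in control libraries and 34.0 to 37.8 in rutaecarpine libraries (log2 fold change -0.75, limma, adjusted p = 0.00343), short of the fold for a call. ADAM10, another sheddase of the family, was at 33.6 to 134 TPM in control libraries and 87.7 to 129 in rutaecarpine libraries, and these overlap.

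Of 17 genes for inhibitors of the receptors and for their degradation, 16 were tested and 0 were called, with a median of 0.29 (0.047 without control replicate 3). SH3KBP1, which links the ubiquitin ligase CBL to receptor uptake, had a log2 fold change of 0.69 (limma, Benjamini-Hochberg adjusted p = 0.0185), and HGS, which sorts receptors to lysosomes, of 0.34 (adjusted p = 0.0399), both short of the fold for a call. ERRFI1, a direct inhibitor of EGFR, was at 211, 193 and 102 TPM in control libraries and 173, 143 and 147 in rutaecarpine libraries. These overlap only through control replicate 3, and control replicates 1 and 2 were above every treated library. All 20 genes for adaptors and the RAS-MAPK relay were tested and 0 were called, with a median of 0.27 (0.046 without control replicate 3). Of the 14 genes for the PI3K-AKT, phospholipase C and STAT relay, 13 were tested and 0 were called, with a median of 0.20 (-0.046 without that library). The medians of these 3 lists thus came close to 0 once control replicate 3 was left out.

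Among 10 genes known to follow ERK activity, 2 were called higher and 1 lower, beside 2.01% and 1.5% of all genes tested, with a median of 0.47 (0.39 without control replicate 3). The list was written with earlier results of these data known, so these counts are a description only. DUSP6, a phosphatase of ERK, was at 37.8, 37.0 and 22.1 TPM in control libraries and 120, 105 and 111 in rutaecarpine libraries (log2 fold change 1.80, limma, Benjamini-Hochberg adjusted p = 0.00286). SPRY2, an inhibitor of receptor signalling, was at 32.4 to 48.6 TPM in control libraries and rose to between 112 and 116 TPM (1.43, adjusted p = 0.00250), and the receptor gene EPHA2 was at 9.25 to 10.1 TPM and fell to between 3.59 and 4.40 TPM (-1.08, adjusted p = 0.00604). The phosphatase gene DUSP4 and the transcription factor gene ETV5 also passed the adjusted p but not the fold, with log2 fold changes of 0.94 (limma, adjusted p = 0.0261) and 0.56 (adjusted p = 0.0449).

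**Figure D5:**
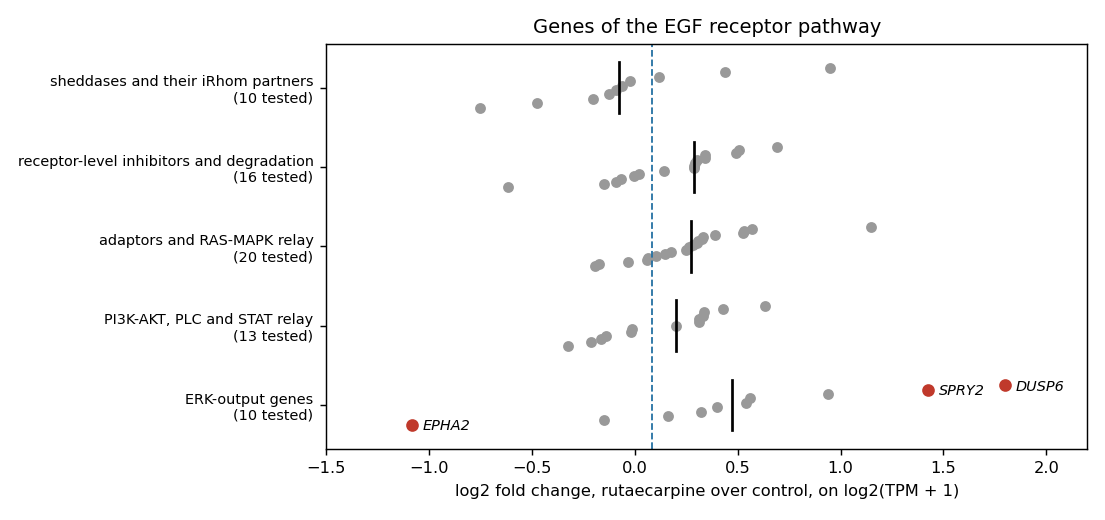
Each point is the log2 fold change of a tested gene (rutaecarpine over control, on log2(TPM + 1)) in lists of the pathway, with called genes in red, black bars for list medians and a dashed line for the median of all genes tested (0.082). The first 4 lists hold no called gene, and the ERK-output list holds DUSP6 and SPRY2 on the right and EPHA2 on the left.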

How the data were processed

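RNA-Seq was performed on 6 libraries of U87 cells, grouped by the treatment in the sample labels. The authors used an Illumina NovaSeq and estimated gene abundance with RSEM, which divides reads shared by several genes, and the table they deposited holds TPM. The submitters' processing notes name GRCh38.p13, DESeq2 and edgeR, and the aligner is not given in the sources used here. All 6 columns matched a sample and 0 were left unmatched. TPM keep no read numbers, so no counting error is given and count methods were not used.

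After conversion to log2(TPM + 1), only genes reaching 1 TPM in 3 or more libraries were kept, and groups were compared with limma 3.58.1 in R 4.3.3 (mean-variance trend, two-sided, no replicate block, Benjamini-Hochberg over all 14377 genes). A fold change on this scale understates that of weakly expressed genes. The procedure was tested on 3 simulated sets, in which 186 to 192 of 200 changed genes were recovered with at most 3 false calls. All changes put into these sets had the same size, which was above the fold needed for a call. The recovery of smaller changes was therefore not tested. The spread of the sets was taken without control replicate 3, so the test did not cover a library that stands apart. Gene positions and transcript lengths came from GENCODE release 29 (GRCh38), and promoter sequences from RefSeq (GRCh38.p14), with no RefSeq window used for NRG1 and ERBB3.

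The members, gene lists and tests were chosen with earlier results of these data known. Genes named are the members, the rest of the family, called genes of the lists, the 3 genes most like each called member, and neighbours of EREG. ADAM10, ADAM15, ADAM17, ERRFI1, SH3KBP1, HGS, DUSP4 and ETV5 were named after their values were seen. Alternatives were centring on medians, no trend, no filter, 1 TPM or more in all libraries, a replicate block, a pseudocount of 0.1, library weights, leaving out each library, and an adjusted p of at most 0.001. Removing trends on GC content and transcript length (by natural splines of 5 degrees of freedom over 14267 genes) and the ratios within a library were added after the data had been seen.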

Additional observations from a re-analysis of the deposited data

How the results depend on the processing

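EREG and NRG1 were called higher under all 14 alternatives of processing and of left-out libraries, with log2 fold changes of 2.62 to 3.18 and 2.55 to 3.01 (limma, adjusted p of 2.7e-06 to 0.0161 and of 7.4e-06 to 0.0166). With an adjusted p of at most 0.001, 0 members were called. With the replicate block, EREG stood at 2.99 (limma, adjusted p = 0.0161) and NRG1 at 2.81 (0.0166), while the genes called lower over the whole table numbered 125 instead of 216 and the ERK-output gene called lower was lost. The labels do not say what the replicate numbers mark, so the numbers were not taken as pairs. Across genes the deviations of same-numbered libraries had r of 0.12, -0.27 and -0.22. Over all pairs of a control with a rutaecarpine library, the highest r was 0.39, for control replicate 3 with rutaecarpine replicate 2. Deviations from a mean of 3 libraries are not independent, so these r cannot show whether a number marks a shared culture or day. Leaving out each library gave 153 to 330 genes called lower, the highest without control replicate 3.

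The sign of 2 members near 0 depended on the processing. EGFR was at -0.092 with libraries centred, -0.27 with library weights, -0.13 with trends on length and GC content removed, and -0.42 to 0.22 as each library was left out. ERBB2 was at -0.24 to 0.11 as each library was left out. The adjusted p of TGFA was 0.00367 with library weights (log2 fold change -0.77) and 0.0458 with the trends removed (-0.63), and its fold stayed under that for a call in all 14 alternatives. Under the same 14 alternatives the ERK-output genes called higher numbered 2 or 3 and those called lower 1, or 0 with the block, and the other lists kept 0 called genes. The causes of these differences were not tested.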
